A study of Mus musculus with 6 samples.

Results

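Ephrins, semaphorins, Slits and netrins are the 4 classical families of guidance cues, and the genes described here encode these cues and their receptors. Members were the protein-coding genes whose symbols begin with Epha, Ephb, Efna, Efnb, Sema, Plxn, Slit, Robo or Unc5 and a family number, together with Nrp1, Nrp2, Ntn1, Ntn4, Dcc and Neo1. Slitrk genes, which encode another family, were left out. This gave 68 of the 52636 genes in the count table, 33 ligand genes and 35 receptor genes. RNA was sequenced from 6 samples of mouse embryoid bodies (EBs), aggregates in which embryonic stem cells start to differentiate, to compare 3 WT samples with 3 Tnfaip2-/- samples. The WT EBs came from the E14 embryonic stem cell line, and the Tnfaip2-/- EBs came from 1 clone derived from it, in which CRISPR-Cas9 editing left an early stop codon in Tnfaip2. All EBs were formed in hanging drops for 3 days and then left to differentiate for 3 days on gelatin. The labels do not say which samples were grown in separate cultures. Each genotype is 1 line, so p-values measure the spread between these samples and not the spread between clones. This spread was small, with a common biological coefficient of variation (relative spread beyond counting error) of 0.0215. Sequencing depth was similar, with totals of 22987433, 22489903 and 23804489 counts for WT replicates 1 to 3 and of 22480962, 21765931 and 21986960 for the Tnfaip2-/- replicates.

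The targeted gene, Tnfaip2, gave 7, 4 and 7 counts in WT and 0, 2 and 2 in Tnfaip2-/- EBs, below the expression filter used for the test. With no filter it was lower (log2 fold change -2.05, adjusted p = 0.0133 in edgeR's quasi-likelihood test). The Tnfaip2-/- samples all lay below the WT samples, with a ratio of WT to Tnfaip2-/- of 4.39 (95% exact interval 1.44 to 17.8, counting error only).

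Guidance cues steer growing axons and migrating cells by attraction or repulsion, and they also set tissue boundaries and pattern blood vessels. Eph receptors are receptor tyrosine kinases that bind ephrins on neighbouring cells, where A-class ephrins are held by a lipid anchor and B-class ephrins span the membrane. Semaphorins signal through plexins, in some cases with a neuropilin as co-receptor, Slits bind Robo receptors, and netrins bind Dcc, neogenin and Unc5 receptors. In the early embryo many of these genes are active at the primitive streak, in the neural plate and in forming vessels.

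Of the 68 guidance genes, 67 had a count in at least 1 sample and 57 passed the expression filter and were tested. A gene was called changed when its Benjamini-Hochberg adjusted p, taken over all 17849 tested genes from the quasi-likelihood test of edgeR, was below 0.05. By this rule 45 guidance genes changed, 31 lower and 14 higher in Tnfaip2-/- EBs. Across all tested genes 67.7% changed, 33.7% lower and 34.0% higher, so a change as such was common. Among the tested guidance genes 78.9% changed, 54.4% lower and 24.6% higher. The median log2 fold change of the 57 genes was -0.39, against 0.0030 for all tested genes. At least 2-fold changes were seen for 18 of the guidance genes and for 12.0% of all genes. The 3 samples of each genotype lay apart from those of the other for 46 of the 57 guidance genes and for 69.4% of all tested genes. In bulk RNA, fewer cells of a type and less RNA per cell cannot be told apart. The plot of log2 fold changes by role shows that Eph receptors, ephrins, semaphorins and plexins each held genes of both directions, and the values of each family follow. Levels are given as CPM (counts scaled to the same library size in every sample) after TMM normalization, log2 fold changes as Tnfaip2-/- against WT with their standard error, and means with their SD over 3 samples.

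**Figure D1:**
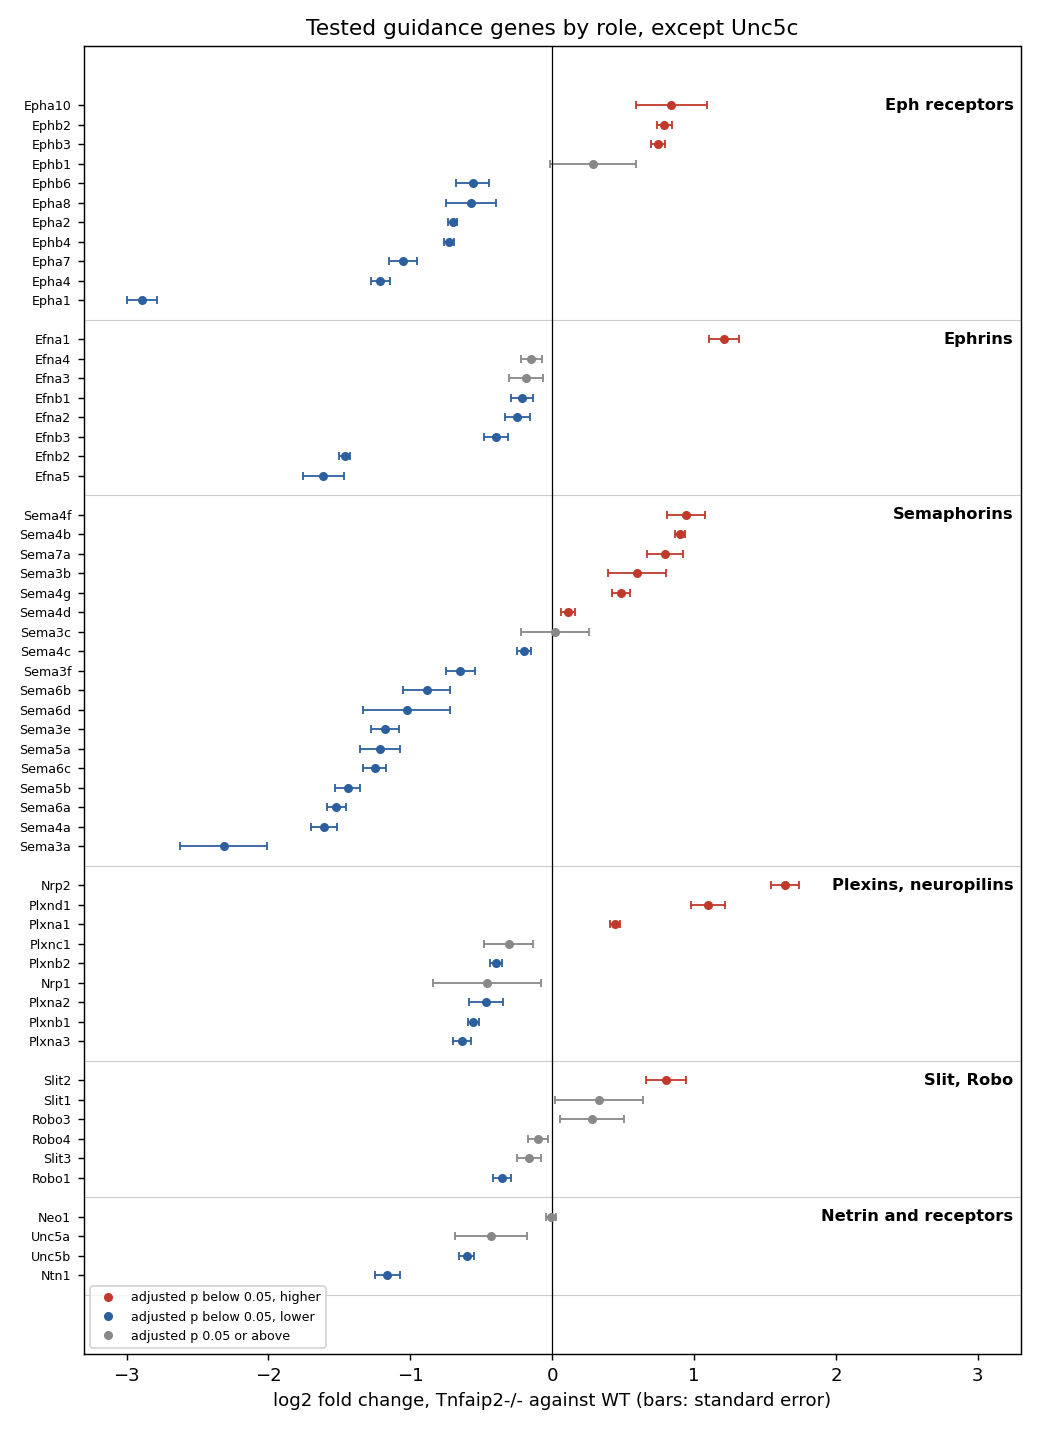
Log2 fold change of Tnfaip2-/- against WT EBs (x axis, bars show the standard error) for the tested guidance genes except Unc5c, sorted within each role, with 3 samples per genotype. Red genes were called higher and blue genes lower by edgeR (threshold 0.05 on the adjusted p), and grey genes did not pass. Epha1 lies lowest at -2.89 and Nrp2 highest at 1.64.

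Among the A-class Eph receptors, 5 of the 6 tested genes were lower and 1 was higher, against 33.7% lower and 34.0% higher of all tested genes. Epha1 (ENSMUSG00000029859, chromosome 6, 42358487 to 42373268), a receptor for ephrin-A1, had 17.6, 17.7 and 17.4 CPM in the WT samples and 2.51, 1.83 and 2.75 CPM in the Tnfaip2-/- samples. The WT samples hardly differed from each other and all lay far above the others. Its mean fell from 17.6 ± 0.162 to 2.36 ± 0.479 CPM, and the log2 fold change was -2.89 ± 0.103 (adjusted p = 4.32e-28 in edgeR's quasi-likelihood test). Exons of Zyx on the opposite strand cover 6.01% of its exon bases, and without strand information reads from these bases cannot be assigned to either gene. Epha4 (ENSMUSG00000026235), a receptor that binds ephrins of both classes, had 24, 23 and 24.2 CPM in WT and 10.9, 9.36 and 10.5 CPM in Tnfaip2-/- EBs. It fell, and its log2 fold change was -1.21 ± 0.068 (adjusted p = 1.27e-20, same test of edgeR). Epha7 had 9.22, 11.1 and 11.2 CPM in WT and 5.46, 4.89 and 4.82 CPM in Tnfaip2-/- EBs, and its log2 fold change was -1.05 ± 0.099. For both genes the genotypes did not overlap. Epha2 (ENSMUSG00000006445), which is expressed in pluripotent and epithelial cells, had the highest level per kb of exon of all Eph receptors. It had 142, 148 and 139 CPM in the WT samples and 86, 85.6 and 91.9 CPM in the Tnfaip2-/- samples, without overlap, and a log2 fold change of -0.70 ± 0.0332 (adjusted p = 1.95e-23 in edgeR's quasi-likelihood test). Epha8 was lower and Epha10 higher, with log2 fold changes of -0.57 ± 0.177 and 0.84 ± 0.249, both at levels under 3 CPM.

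The B-class Eph receptors were split. Ephb4 (ENSMUSG00000029710, chromosome 5, 137350109 to 137378669), the receptor by which veins and arteries are told apart together with ephrin-B2, had 110.1, 109.7 and 106 CPM in the WT samples and 65.6, 65.9 and 65.2 CPM in the Tnfaip2-/- samples. Its log2 fold change was -0.73 ± 0.034 (adjusted p = 1.28e-23 in edgeR's quasi-likelihood test). Ephb2 (ENSMUSG00000028664, chromosome 4, 136647539 to 136835988), which acts in axon guidance and in tissue boundaries, went the other way, with 19.9, 19.2 and 19.5 CPM in WT and 33.8, 34.1 and 33.3 CPM in Tnfaip2-/- EBs. Ephb3 (ENSMUSG00000005958, chromosome 16, 21204755 to 21223305), which shares ligands with Ephb2, had 24.1, 25.5 and 24.4 CPM in WT and 40.3, 41.1 and 42.6 CPM in Tnfaip2-/- EBs. For these 3 genes every Tnfaip2-/- sample lay on the same side of every WT sample. Both receptors rose, Ephb2 by a log2 fold change of 0.79 ± 0.0529 and Ephb3 by 0.74 ± 0.0492, where edgeR's quasi-likelihood test gave an adjusted p of 7.48e-18 for the former and of 4.79e-18 for the latter. Ephb6, whose kinase domain is inactive, was lower at -0.56 ± 0.118. Ephb1 did not pass the test, with a log2 fold change of 0.29 ± 0.301 and between 9 and 24 counts per sample. Without WT replicate 2 or Tnfaip2-/- replicate 3 the log2 fold change of Ephb1 was 0.02 and 0.06, and without Tnfaip2-/- replicate 2 it was 0.51.

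The ephrins showed their largest changes in Efna5, Efnb2 and Efna1. Efnb2 (ENSMUSG00000001300, chromosome 8, 8617434 to 8661242), the main partner of EphB4, had 103, 112 and 102 CPM in the WT samples and 37.7, 40.3 and 37.1 CPM in the Tnfaip2-/- samples. The lowest WT sample was far above the highest Tnfaip2-/- sample. Its mean fell from 106 ± 5.41 to 38.4 ± 1.69 CPM, and the log2 fold change was -1.46 ± 0.041 (adjusted p = 2.85e-32 in edgeR's quasi-likelihood test). Efna5 (ENSMUSG00000048915), a repellent ligand in axon mapping, had 5.56, 5.18 and 6.3 CPM in WT and 1.67, 2.24 and 1.67 CPM in Tnfaip2-/- EBs. It fell, and its log2 fold change was -1.61 ± 0.144 (adjusted p = 1.12e-13, edgeR's quasi-likelihood test). Efna1 (ENSMUSG00000027954), a ligand of EphA2 that is also known in endothelial cells, was the only ephrin that passed the test with a higher level. It had 3.93, 3.66 and 4.72 CPM in WT and 9.64, 8.72 and 10.1 CPM in Tnfaip2-/- EBs, without overlap, and a log2 fold change of 1.21 ± 0.106 (adjusted p = 5.94e-14 in edgeR's quasi-likelihood test). Efnb3 was lower, at -0.39 ± 0.084. Efna2 and Efnb1 were also lower by small amounts, -0.25 ± 0.0869 and -0.21 ± 0.0769, and neither passed with DESeq2 in place of edgeR. Efna2 also missed the threshold without WT replicate 1 (log2 fold change -0.21) or Tnfaip2-/- replicate 3 (-0.20), and Efnb1 without Tnfaip2-/- replicate 1 (-0.16). The genotypes overlapped for Efna2, and with the median of chromosome 10 subtracted its log2 fold change was -0.06. Efna3 and Efna4 did not pass the test, with log2 fold changes of -0.18 ± 0.121 and -0.15 ± 0.0733. In these 2 genes 14.1% and 10.5% of exon bases are covered by antisense genes, whose reads could not be separated.

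**Figure D2:**
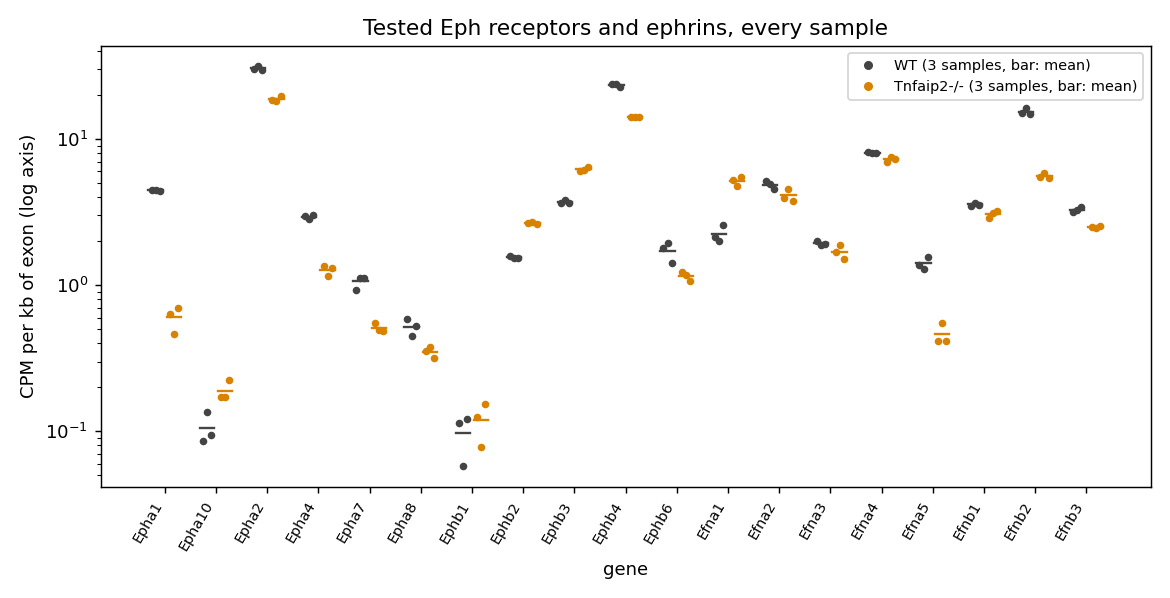
Level in CPM per kb of exon (y axis, log scale) of each tested Eph receptor and ephrin (x axis) in the 3 WT samples (dark points) and the 3 Tnfaip2-/- samples (orange points), where bars are means. Epha2, Ephb4 and Efnb2 were at the top in WT EBs, and the points of Ephb2, Ephb3 and Efna1 were higher in Tnfaip2-/- EBs.

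The promoters of the B-class receptors Ephb2, Ephb3 and Ephb4 and of ephrin-B2 are shown. These genes were picked because Ephb4 and Efnb2 fell together while Ephb2 and Ephb3 rose. The other B-class receptors are not shown. Each promoter is the 300-base window that RefSeq gives around the start of the gene (GRCm38.p6, the first window listed for the gene), written 5′ to 3′ on the strand of the gene. They lie at chr4:136835963-136836262 on the reverse strand (Ephb2), chr16:21204545-21204844 on the forward strand (Ephb3), chr5:137349859-137350158 on the forward strand (Ephb4) and chr8:8661193-8661492 on the reverse strand (Efnb2). Capitals mark matches to 3 short motifs searched on both strands, CTTTGA (the core bound by TCF/LEF factors), TCACAC (a core bound by T-box factors) and CACCTG (an E-box bound by Snail and Zeb factors), where matches to TCACAC and CACCTG can overlap and share bases.
Ephb2: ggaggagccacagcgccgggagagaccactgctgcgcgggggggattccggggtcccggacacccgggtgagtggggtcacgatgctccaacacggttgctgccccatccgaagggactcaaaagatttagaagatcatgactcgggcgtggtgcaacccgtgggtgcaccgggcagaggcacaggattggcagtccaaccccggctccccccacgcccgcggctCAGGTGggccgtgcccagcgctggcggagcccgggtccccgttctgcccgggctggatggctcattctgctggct
Ephb3: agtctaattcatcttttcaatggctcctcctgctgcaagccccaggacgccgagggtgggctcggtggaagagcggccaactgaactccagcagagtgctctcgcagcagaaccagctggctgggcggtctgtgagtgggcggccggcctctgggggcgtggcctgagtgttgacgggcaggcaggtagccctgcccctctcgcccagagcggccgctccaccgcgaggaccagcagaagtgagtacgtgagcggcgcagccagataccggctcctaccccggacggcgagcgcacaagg
Ephb4: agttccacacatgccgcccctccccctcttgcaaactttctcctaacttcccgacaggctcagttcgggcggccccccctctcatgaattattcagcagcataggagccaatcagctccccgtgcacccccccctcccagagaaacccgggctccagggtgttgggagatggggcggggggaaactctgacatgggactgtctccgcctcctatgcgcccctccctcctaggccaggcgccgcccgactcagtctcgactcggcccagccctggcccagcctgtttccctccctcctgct
Efnb2: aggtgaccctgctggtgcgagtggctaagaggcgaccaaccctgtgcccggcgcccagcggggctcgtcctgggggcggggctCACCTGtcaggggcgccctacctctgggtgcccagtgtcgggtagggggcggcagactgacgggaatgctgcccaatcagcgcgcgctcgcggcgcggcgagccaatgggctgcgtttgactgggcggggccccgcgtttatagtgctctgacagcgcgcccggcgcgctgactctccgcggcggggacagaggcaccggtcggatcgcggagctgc
Ephb2 and Efnb2 each held 1 match, to the E-box, and the windows of Ephb3 and Ephb4 held none. The GC content of the window was 68.7% for Ephb2, 66.7% for Ephb3, 64.7% for Ephb4 and 72.3% for Efnb2. Of all 27025 RefSeq promoters, 16.2% held CTTTGA, 14.4% held TCACAC and 20% held CACCTG. Among the 58 guidance genes with a window in the RefSeq table, 5, 7 and 8 held these motifs. Windows of the 12 higher and 27 lower genes had similar median GC contents of 66.8% and 67.0%, both above the 52.7% of all promoters. No window was given for Efnb3, Dcc, Unc5d, Plxna1, Sema3f, Sema6a, Slit1, Sema3b, Plxna4 and Ntn1.

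Levels between genes were compared per kb of exon. Summed over the 14 Eph receptors, the level was 70.3, 71.7 and 68.6 CPM per kb in WT and 45.7, 45.3 and 47 CPM per kb in Tnfaip2-/- EBs. Most of this level came from Epha2 and Ephb4, at 30.6 ± 0.965 and 23.4 ± 0.47 CPM per kb in WT and 18.8 ± 0.76 and 14.1 ± 0.0692 in Tnfaip2-/- EBs. Within the B class, Ephb4 made up 76.8 ± 0.51% of the summed level in WT and 58.1 ± 0.297% in Tnfaip2-/- EBs. The share of Ephb3 was 12.2 ± 0.374% and 25.6 ± 0.679%, and that of Ephb2 5.08 ± 0.144% and 11 ± 0.141%. These differences exceeded the spread between replicates. The summed level of the 3 B-class ephrins was 21.7, 23.3 and 21.9 CPM per kb in WT and 10.9, 11.5 and 11.2 CPM per kb in Tnfaip2-/- EBs. The 5 A-class ephrins together differed by less than the SD of the Tnfaip2-/- samples, with 18.5 ± 0.391 and 18.8 ± 0.478 CPM per kb, while their makeup changed through Efna1 and Efna5. The share of Efnb2 in all ephrins was 37.8 ± 1.48% in WT and 18.7 ± 0.483% in Tnfaip2-/- EBs, and that of Efna1 was 5.5 ± 0.788% and 17.4 ± 1.66%.

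**Figure D3:**
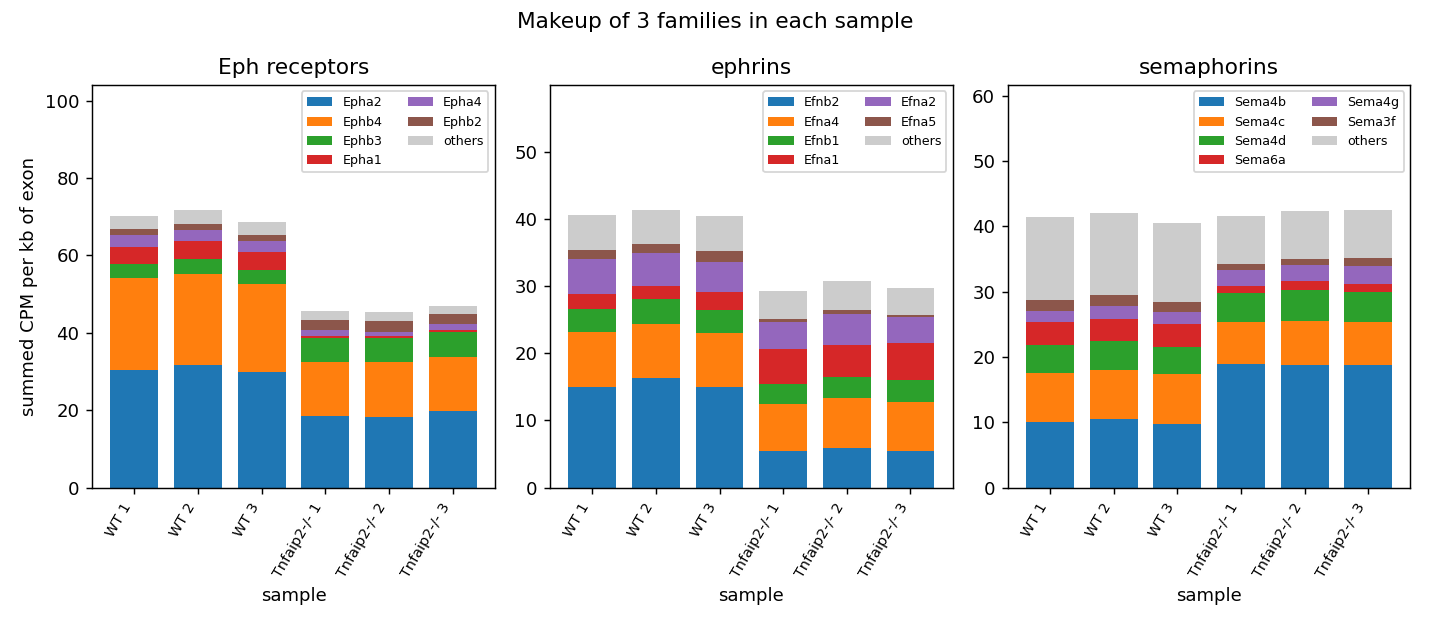
Stacked level in CPM per kb of exon (y axis, from 0) of the Eph receptors, ephrins and semaphorins in each of the 6 samples (x axis), with 6 genes of each family in colour and the other genes in grey. The stacks of Eph receptors and ephrins are lower in the Tnfaip2-/- samples, and those of the semaphorins have similar heights with a larger part from Sema4b.

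The semaphorins changed in 17 of 18 tested genes, 11 lower and 6 higher. These were 94.4% changed, 61.1% lower and 33.3% higher, against 67.7%, 33.7% and 34.0% of all tested genes, so the share of higher genes was near that of all genes. The secreted class 3 semaphorins, which act on neuropilins and plexins, were low in these EBs. Sema3f, the highest of them per kb, had 8.82, 9.07 and 7.79 CPM in WT and 5.06, 5.07 and 6.22 CPM in Tnfaip2-/- EBs. It fell, and its log2 fold change was -0.65 ± 0.102 (adjusted p = 2.87e-07 in edgeR's quasi-likelihood test). Sema3e, which binds plexin D1 directly, had 10.1, 9.91 and 10.3 CPM in WT and 4.58, 4.29 and 4.46 CPM in Tnfaip2-/- EBs, with a log2 fold change of -1.18 ± 0.0969. For Sema3a, the classical repellent of sensory axons, the counts were 28, 54 and 37 in WT and 9, 9 and 5 in Tnfaip2-/- EBs. The genotypes lay apart for all 3 genes, and the log2 fold change of Sema3a was -2.32 ± 0.305 (adjusted p = 5.77e-09 in edgeR's quasi-likelihood test). Sema3b was higher at 0.60 ± 0.205, but missed the threshold without Tnfaip2-/- replicate 1 (log2 fold change 0.40) and with DESeq2. Sema3c did not pass the test (log2 fold change 0.02 ± 0.242, with a change of sign in 4 alternatives).

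The membrane-bound class 4 held most of the semaphorin RNA, and 4 of its 6 genes were higher. Sema4b (ENSMUSG00000030539, chromosome 7, 80186841 to 80226527) had 56.3, 59 and 54.9 CPM in the WT samples and 107, 106 and 106 CPM in the Tnfaip2-/- samples. It rose by a log2 fold change of 0.90 ± 0.0356 (adjusted p = 1.95e-26 in edgeR's quasi-likelihood test), and its share of the summed level of all semaphorins was 24.3 ± 0.51% in WT and 44.6 ± 0.728% in Tnfaip2-/- EBs. Sema4a (ENSMUSG00000028064), known from immune cells and the retina, changed in the other direction. It had 14.1, 15.2 and 15.8 CPM in WT and 4.31, 5.66 and 4.82 CPM in Tnfaip2-/- EBs, which gave a log2 fold change of -1.61 ± 0.0919 (adjusted p = 2.33e-20, edgeR's quasi-likelihood test). Sema4f, at 2.87, 2.5 and 2.3 CPM in WT and 4.75, 4.98 and 5.01 CPM in Tnfaip2-/- EBs, had a log2 fold change of 0.94 ± 0.133. The genotypes did not overlap for these genes. Sema4g was higher at 0.48 ± 0.0619 and Sema4c lower at -0.20 ± 0.048, the latter with 7.27% of its exon bases covered by a gene on the opposite strand. Sema4d, a ligand of plexin B1, passed the threshold narrowly at 0.11 ± 0.0485 (adjusted p = 0.0419 in edgeR's quasi-likelihood test). It missed it with DESeq2, without the filter, and without WT replicate 1, 2 or 3 (log2 fold changes 0.11, 0.11 and 0.08) or Tnfaip2-/- replicate 2 or 3 (0.08 and 0.10).

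All 6 genes of classes 5 and 6 were lower, with log2 fold changes between -1.52 and -0.89. Sema6a (ENSMUSG00000019647, chromosome 18, 47235598 to 47368870), a transmembrane ligand of plexins A2 and A4, had 30.1, 30.8 and 31.4 CPM in the WT samples and 9.46, 11.2 and 11.5 CPM in the Tnfaip2-/- samples. Its log2 fold change was -1.52 ± 0.0651 (adjusted p = 4.51e-25 in edgeR's quasi-likelihood test). Sema6c had 19.8, 17.3 and 17.2 CPM in WT and 7.79, 7.08 and 7.89 CPM in Tnfaip2-/- EBs, which gave a log2 fold change of -1.25 ± 0.0792. Neither gene showed overlap between the genotypes. Sema6b had 3.62, 3.89 and 3.15 CPM in WT and 1.41, 2.05 and 2.3 CPM in Tnfaip2-/- EBs, with a log2 fold change of -0.89 ± 0.163. Class 5 semaphorins carry thrombospondin repeats beside the sema domain. Sema5b had 16, 16.7 and 14.7 CPM in WT and 5.81, 4.98 and 6.63 CPM in Tnfaip2-/- EBs (log2 fold change -1.44 ± 0.0888), and Sema5a had 4.37, 5.27 and 5.07 and 1.98, 2.15 and 2.21 CPM (log2 fold change -1.21 ± 0.141). Each of these samples kept its genotype's side. Sema6d was lower at -1.02 ± 0.307, from 18 to 24 counts per WT sample to 8 to 13 counts per Tnfaip2-/- sample. The summed level of class 6 was 7.53 ± 0.217 CPM per kb in WT and 3.03 ± 0.243 CPM per kb in Tnfaip2-/- EBs, and that of class 4 was 27 ± 0.476 and 34.4 ± 0.402 CPM per kb. Over all 20 semaphorins the summed levels were 41.3 ± 0.753 and 42.1 ± 0.496 CPM per kb. Sema7a, which is anchored by a lipid and binds plexin C1 and integrins, rose from 3.13, 2.63 and 3.19 CPM in the WT samples to 5.41, 5.43 and 4.73 CPM in the Tnfaip2-/- samples, and its log2 fold change was 0.80 ± 0.128 (adjusted p = 4.92e-07 in edgeR's quasi-likelihood test).

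Among the plexins 4 were lower, 2 higher and 1 did not pass the test, 85.7% changed against 67.7% of all tested genes. Plxna1 (ENSMUSG00000030084), the highest plexin per kb, had 90.3, 89.1 and 83.9 CPM in WT and 116, 119.6 and 122 CPM in Tnfaip2-/- EBs and rose by a log2 fold change of 0.44 ± 0.0336 (adjusted p = 5.03e-16 in edgeR's quasi-likelihood test). An antisense gene covers 10.7% of its exon bases, and its reads could not be separated. Its share of the summed plexin level was 33.2 ± 0.674% in WT and 47.7 ± 0.75% in Tnfaip2-/- EBs, while the sum itself was 29.2 ± 1.29 and 27.6 ± 0.713 CPM per kb. Plxnd1 (ENSMUSG00000030123), a receptor of vessels and the partner of Sema3e, had 3.22, 2.99 and 2.85 CPM in WT and 6.51, 6.53 and 6.36 CPM in Tnfaip2-/- EBs. Plxna3 had 27.4, 31.3 and 26.5 CPM in WT and 17.3, 18.5 and 18.8 CPM in Tnfaip2-/- EBs, and Plxnb1 had 64.9, 65.1 and 62.3 and 44.1, 41.4 and 45.4 CPM. In each of these genes the genotypes lay apart, Plxnd1 higher and the other two lower in Tnfaip2-/- EBs. The log2 fold changes were 1.10 ± 0.118 for Plxnd1, -0.64 ± 0.0615 for Plxna3 and -0.56 ± 0.0414 for Plxnb1. Plxnb2 and Plxna2 were lower at -0.40 ± 0.0428 and -0.47 ± 0.122, and Plxnc1 did not pass the test (-0.31 ± 0.172). The neuropilins differed from each other. Nrp2 (ENSMUSG00000025969, chromosome 1, 62703285 to 62818695), a co-receptor for Sema3f and for VEGF-C, had 3.62, 3.8 and 4.98 CPM in the WT samples and 12.5, 12.2 and 14 CPM in the Tnfaip2-/- samples. It was the guidance gene with the largest increase, a log2 fold change of 1.64 ± 0.101 (adjusted p = 3.92e-19 in edgeR's quasi-likelihood test). Nrp1, the co-receptor for Sema3a, had 6 to 14 counts per sample and did not pass the test (-0.46 ± 0.381).

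**Figure D4:**
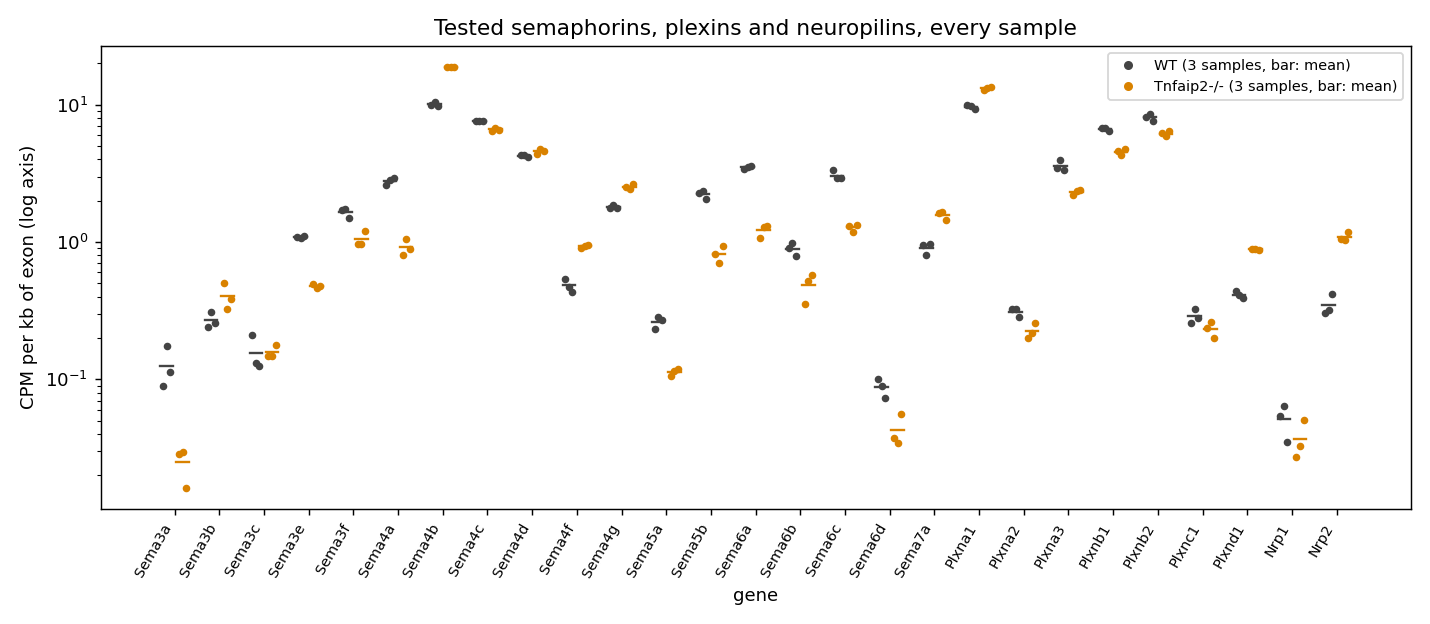
Level in CPM per kb of exon (y axis, log scale) of each tested semaphorin, plexin and neuropilin (x axis) in the 3 WT samples (dark points) and the 3 Tnfaip2-/- samples (orange points), where bars are means. Sema4b, Plxnd1 and Nrp2 are higher in every Tnfaip2-/- sample, and the points of Sema5a, Sema5b and the Sema6 genes are lower.

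Of the 6 tested Slit and Robo genes, 1 was higher, 1 was lower and 4 did not pass the threshold, 33.3% changed against 67.7% of all tested genes. Slit2 had 2.21, 2.32 and 2.85 CPM in the WT samples and 4.09, 4.29 and 4.51 CPM in the Tnfaip2-/- samples and rose by a log2 fold change of 0.80 ± 0.14 (adjusted p = 2.47e-06 in edgeR's quasi-likelihood test). Slit3, the highest Slit per kb, had 9.97, 10.3 and 9.49 CPM in WT and 8.05, 9.77 and 8.7 CPM in Tnfaip2-/- EBs. The genotypes of Slit3 overlapped and it did not pass the test (-0.17 ± 0.0863), although it did without Tnfaip2-/- replicate 2 (log2 fold change -0.24). Robo1, a receptor for Slits, had 18.6, 18.7 and 18.1 CPM in WT and 14.8, 14.7 and 13.9 CPM in Tnfaip2-/- EBs. It fell, and its log2 fold change was -0.35 ± 0.0648 (adjusted p = 5.65e-06 in edgeR's quasi-likelihood test). Robo4, the Robo of endothelial cells, had the highest Robo level per kb. It had 12.3, 13.2 and 13.1 CPM in WT and 11.9, 11.9 and 12.2 CPM in Tnfaip2-/- EBs and did not pass the test (-0.10 ± 0.0731). The log2 fold changes of Slit1 and Robo3 were 0.33 ± 0.31 and 0.28 ± 0.227, also not past the threshold.

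The genes for netrin-1 and its receptors Unc5b and Unc5c were lower, and those for neogenin and Unc5a did not pass the test. Ntn1 (ENSMUSG00000020902, chromosome 11, 68209364 to 68400823), which attracts commissural axons, had 13.5, 13.1 and 14.3 CPM in the WT samples and 5.59, 6.12 and 6.58 CPM in the Tnfaip2-/- samples. It fell, and its log2 fold change was -1.16 ± 0.0863 (adjusted p = 2.67e-16 in edgeR's quasi-likelihood test). Unc5b (ENSMUSG00000020099), a repulsive netrin receptor that is also found on vessels, had 35.4, 40.1 and 37.3 CPM in WT and 23.4, 24.5 and 26.5 CPM in Tnfaip2-/- EBs (log2 fold change -0.60 ± 0.0539). The genotypes did not overlap for either gene. Unc5c (ENSMUSG00000059921, chromosome 3, 141465216 to 141834924) stood out, with 29, 34 and 25 counts in WT but 2, 0 and 0 in Tnfaip2-/- EBs, near the detection floor of 3 counts. Without Tnfaip2-/- replicate 1, the Tnfaip2-/- samples that remain had 0 counts. The ratio of WT to Tnfaip2-/- was 42.9 (95% interval 11.5 to 359.6) from counting error alone, and the adjusted p was 6.9e-12 in edgeR's quasi-likelihood test. Neo1, which encodes neogenin, had the highest level per kb among the netrin receptors, with 86.2, 89.8 and 89.8 CPM in WT and 92.2, 88.1 and 83.8 CPM in Tnfaip2-/- EBs. These ranges overlapped, and the log2 fold change was -0.01 ± 0.0356, with either sign under other settings. Neo1 made up 61.4 ± 1.14% of the summed netrin receptor level in WT and 70.5 ± 2.51% in Tnfaip2-/- EBs, and Unc5b 36.3 ± 1% and 27.7 ± 2.08%. Unc5a did not pass the test (-0.43 ± 0.253), but did without WT replicate 1 (log2 fold change -0.62) or Tnfaip2-/- replicate 3 (-0.77).

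Examples of ligands and receptors that are known to bind each other are set side by side here, and other pairs are possible. Both EphB4 and ephrin-B2 were lower, with log2 fold changes of -0.73 ± 0.034 and -1.46 ± 0.041. For ephrin-A1 and EphA2 the ligand was higher at 1.21 ± 0.106 and the receptor lower at -0.70 ± 0.0332. EphA1, another receptor for ephrin-A1, was lower too, at -2.89 ± 0.103. Slit2 was higher at 0.80 ± 0.14 and Robo1 lower at -0.35 ± 0.0648, while Slit3 and Robo4, the highest Slit and Robo per kb, did not pass the test. Sema4d passed narrowly as higher at 0.11 ± 0.0485, and Plxnb1 was lower at -0.56 ± 0.0414. Both Sema6a and Plxna2 were lower, at -1.52 ± 0.0651 and -0.47 ± 0.122. The ligand was lower and the receptor higher for Sema3e with Plxnd1 (-1.18 ± 0.0969 and 1.10 ± 0.118) and for Sema3f with Nrp2 (-0.65 ± 0.102 and 1.64 ± 0.101). Netrin-1, Unc5b and Unc5c fell, while Neo1, the most abundant netrin receptor per kb, and Unc5a did not pass the test. Sema7a rose, and its receptor Plxnc1 did not pass the test. The RNA counts used here do not measure protein levels or binding, and the paper's proteome data of EBs were not used.

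The 11 guidance genes below the filter were Epha3, Epha5, Epha6, Sema3d, Sema3g, Plxna4, Plxnb3, Robo2, Ntn4, Dcc and Unc5d. Epha6 had 0 counts in all samples, and Epha3 and Epha5 had at most 3 counts in any sample. Plxna4, a receptor of class 6 semaphorins, had 8, 9 and 7 counts in WT and 1, 1 and 3 counts in Tnfaip2-/- EBs, a ratio of WT to Tnfaip2-/- of 4.68 (95% interval 1.75 to 15.7). Sema3d had 8, 5 and 9 counts in WT and 2, 5 and 0 in Tnfaip2-/- EBs, a ratio of 3.06 (95% interval 1.26 to 8.49). Ntn4, a netrin of basement membranes, had 7, 5 and 14 counts in WT and 2, 5 and 2 in Tnfaip2-/- EBs, a ratio of 2.82 (95% interval 1.28 to 6.83). These exact intervals cover counting error only. The ratios depend on single samples. Of the Tnfaip2-/- counts, replicate 2 held 5 of 7 for Sema3d and 5 of 9 for Ntn4, and replicate 3 held 3 of 5 for Plxna4. With no filter on low counts the 3 genes were tested and passed, with adjusted p of 0.00211 for Plxna4, 0.0289 for Sema3d and 0.0207 for Ntn4 in edgeR's quasi-likelihood test. In Plxna4 alone of these 3 the genotypes did not overlap. The attractive netrin receptor Dcc had 1, 5 and 1 counts in WT and 6, 5 and 3 counts in Tnfaip2-/- EBs, and a difference was not detectable at this depth. Sema3g, Plxnb3, Robo2 and Unc5d had at most 12 counts per sample with overlapping genotypes.

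Several guidance genes lie within 100 kb of a relative, and no neighbours within this distance passed the test in the same direction. Efna1, Efna3 and Efna4 follow each other on chromosome 3, with gaps of 32.8 and 10.4 kb, and of these Efna1 rose (1.21 ± 0.106) while the other two did not pass the test. Ephb2 and Epha8 on chromosome 4 are 93.4 kb apart and had log2 fold changes of 0.79 ± 0.0529 and -0.57 ± 0.177. Sema3b and Sema3f on chromosome 9 are 72.3 kb apart and had log2 fold changes of 0.60 ± 0.205 and -0.65 ± 0.102. Robo4 and Robo3, 0.553 kb apart on chromosome 9, both stayed short of the threshold.

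**Figure D5:**
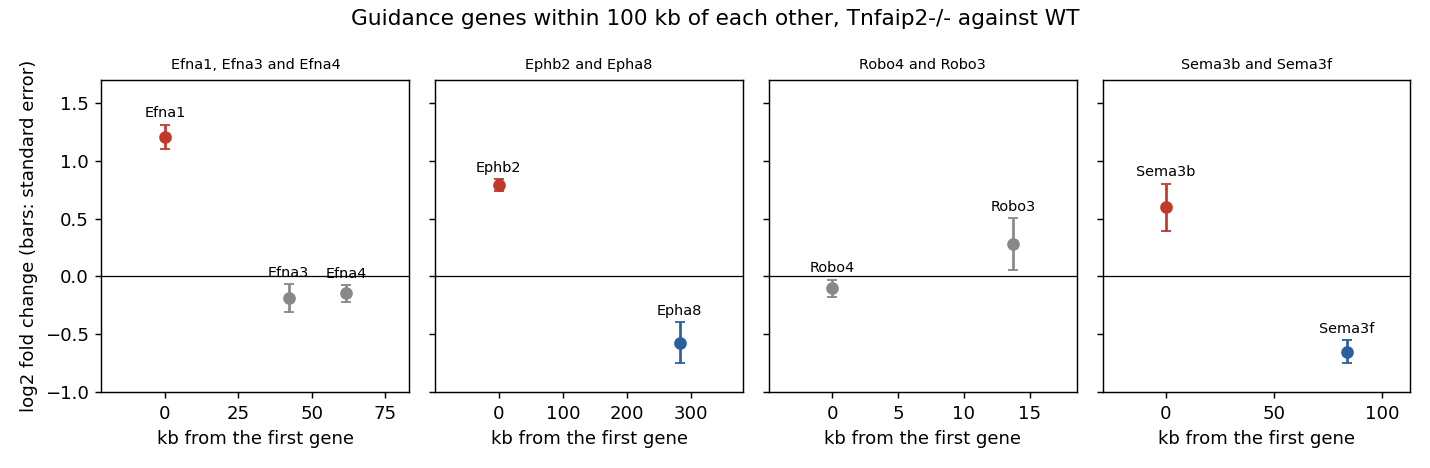
Log2 fold change of Tnfaip2-/- against WT EBs (y axis, bars show the standard error) against distance in kb between the lower ends of the genes (x axis) for guidance genes with gaps of at most 100 kb. Red genes were higher, blue genes lower and grey genes not past an adjusted p of 0.05. Efna1, Ephb2 and Sema3b are higher, next to genes that are lower or did not pass the test.

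The pathway below the receptors was followed with 40 genes for adaptors, exchange factors and cytoskeletal effectors. All 40 were tested, 15 were higher, 14 were lower and 11 did not pass, a share of 72.5% changed against 67.7% of all genes. Their median log2 fold change was 0.065, and 4 changed at least 2-fold. Ngef, which encodes the Eph-linked exchange factor ephexin, had 0.485, 0.804 and 0.596 CPM in the WT samples and 3.52, 2.97 and 3.2 CPM in the Tnfaip2-/- samples (log2 fold change 2.36 ± 0.209). Rnd1, a GTPase that binds plexins, had 2.21, 1.97 and 1.62 CPM in WT and 4.62, 5.62 and 6.22 CPM in Tnfaip2-/- EBs (log2 fold change 1.51 ± 0.147). Kalrn, an exchange factor that acts on the cytoskeleton, had 5.56, 5.67 and 4.43 and 11.1, 11 and 9.69 CPM (log2 fold change 1.02 ± 0.0985). All 3 were higher in each Tnfaip2-/- sample. Crmp1 and Dpysl2 encode collapsin response mediators, which act below Sema3a. Crmp1 had 97.4, 101 and 99.3 CPM in WT and 45.4, 46.1 and 46.4 CPM in Tnfaip2-/- EBs (log2 fold change -1.11 ± 0.0367), and Dpysl2 had 36.5, 33.7 and 35.7 and 20.9, 19 and 16.5 CPM (log2 fold change -0.91 ± 0.0598). Pak3, a kinase activated by Rac and Cdc42, had 3.13, 3.13 and 2.85 CPM in WT and 1.63, 2.19 and 1.49 CPM in Tnfaip2-/- EBs (log2 fold change -0.78 ± 0.168). These 3 were lower in each Tnfaip2-/- sample.

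A list of 30 further guidance genes that are not among the 68, a few minor netrins included, gave 29 genes in the annotation and 21 tested, of which 13 were lower, 4 higher and 4 did not pass. Of these 21 genes 81.0% changed, 61.9% lower and 19.0% higher, against 67.7%, 33.7% and 34.0% of all tested genes. Their median log2 fold change was -0.47. Nrcam, an adhesion molecule that partners with neuropilins, had 6, 4.6 and 5.58 CPM in the WT samples and 1.01, 1.42 and 0.992 CPM in the Tnfaip2-/- samples (log2 fold change -2.24 ± 0.167). Draxin, a repellent that binds Dcc, had 2.6, 2.9 and 2.55 CPM in WT and 1.01, 0.913 and 0.812 CPM in Tnfaip2-/- EBs (log2 fold change -1.55 ± 0.197). Cxcl12, a chemokine that guides migrating cells, had 16.9, 15.9 and 15.2 and 7.75, 6.94 and 7.35 CPM (log2 fold change -1.12 ± 0.0796). These genes fell without overlap between genotypes. Dscaml1, an adhesion molecule of neurons, rose from 0.662, 0.536 and 0.638 CPM in WT to 3.04, 2.88 and 3.11 CPM in Tnfaip2-/- EBs (log2 fold change 2.29 ± 0.209). Flrt3, a ligand of Unc5 receptors and latrophilins, had 7.9, 8.49 and 7.79 and 11.8, 11.3 and 11.1 CPM (log2 fold change 0.51 ± 0.0825). Cdon, a Hedgehog co-receptor, passed narrowly at 0.13 ± 0.0589 and missed the threshold with DESeq2, RLE normalization or no filter. It also missed it without WT replicate 1, 2 or 3 (log2 fold changes 0.11, 0.14 and 0.12) or Tnfaip2-/- replicate 1 or 3 (0.08 and 0.13), and with the median of chromosome 9 subtracted the log2 fold change was 0.04.

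Markers of the cell types that EBs can hold were followed with 9 lists, and their part in the guidance results was not tested. Among the tested genes of a list, 66.7% of neural crest and 71.4% of fibroblast genes changed, near the 67.7% of all genes. The share was 77.8% for primed epiblast, 83.3% for extraembryonic endoderm, 85.7% for trophoblast, 86.7% for primitive streak and 88.9% for endothelial genes, and every tested neural and pluripotency gene changed. Of 16 genes of the primitive streak and mesoderm, 13 were lower, 0 higher, 2 did not pass and 1 was not tested. The most abundant gene of each list is named by its mean CPM over all 6 samples. Within each genotype alone the order differed in several lists. In WT EBs T lay above Eomes, Cubn and Dab2 above Lama1, and Eomes above Tfap2c. In Tnfaip2-/- EBs Zfp42 lay above Pou5f1, Otx2 above Dnmt3b, Tubb3 above Stmn2, Erbb3 above Foxd3 and Pdgfrb above Pdgfra. The summed level of the streak list was 124, 122 and 118 CPM in the WT samples and 31.5, 30 and 34.3 CPM in the Tnfaip2-/- samples. Eomes was the most abundant, and Msgn1 had 0 counts in all Tnfaip2-/- samples. Without Eomes the sums were 95.2, 92.5 and 92 CPM in WT and 12.8, 13.2 and 14.5 CPM in Tnfaip2-/- EBs. T fell from a mean of 34.6 ± 2.12 CPM in WT to 0.134 ± 0.0875 CPM in Tnfaip2-/- EBs. Of 14 neural genes, 8 were lower, 2 higher and 4 not tested, with sums of 358, 352 and 350.3 CPM in WT and 194, 197 and 202 CPM in Tnfaip2-/- EBs, Stmn2 the most abundant and Neurog2 at 0 or 1 count. Without Stmn2 the sums were 203.6, 205.3 and 192.8 CPM in WT and 150.5, 150.8 and 153.9 CPM in Tnfaip2-/- EBs, a smaller difference. Sox1 fell from a mean of 63.7 ± 2.67 to 20.8 ± 0.27 CPM. The progenitor genes Sox1 and Pax6 and the neuronal genes Stmn2, Elavl3 and Dcx were among the lower neural genes. The neuronal genes Tubb3 and Map2 were the higher ones. Of 10 neural crest genes, 5 were lower, 1 higher, 3 did not pass and 1 was not tested, with sums of 59, 61.4 and 56.7 CPM and 41.1, 44.1 and 44.5 CPM, Foxd3 the most abundant and Sox10 under 1 CPM. Foxd3 fell from a mean of 39.1 ± 1.29 to 6.24 ± 0.419 CPM, and Tfap2a, Sox9, Pax3 and Twist1 were lower too. Erbb3, which is also expressed outside the crest, was the higher gene, with 6.3 ± 0.152 CPM in WT and 28.5 ± 1.84 CPM in Tnfaip2-/- EBs. Without Foxd3 the sums turned to 19.3, 21.4 and 19.1 CPM in WT and 34.4, 37.9 and 38.6 CPM in Tnfaip2-/- EBs, and Erbb3 made up most of the latter. Of 12 endothelial genes, 6 were higher, 2 lower, 1 did not pass and 3 were not tested. Their sums were 39.4, 38.9 and 37.5 CPM in WT and 64.1, 66.1 and 69.4 CPM in Tnfaip2-/- EBs, with Pecam1 the most abundant. The defining genes Cdh5, Erg and Emcn were at or near 0, with at most 10 counts per sample, and Kdr was lower.

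Of 12 genes of naive and general pluripotency, 7 were higher and 5 lower, with sums of 2831, 2819 and 2808 CPM in WT and 2829, 2851 and 2869 CPM in Tnfaip2-/- EBs and Pou5f1 the most abundant. Without Pou5f1 the sums were 2062, 2069 and 2047 CPM in WT and 2408, 2427 and 2457 CPM in Tnfaip2-/- EBs. Of 9 genes of the primed epiblast, 7 were lower, 0 higher and 2 did not pass, with sums of 1425, 1433 and 1425 CPM and 779, 766 and 776 CPM and Dnmt3b the most abundant. Without Dnmt3b the sums were 828.6, 832.5 and 826.1 CPM in WT and 600.8, 595.5 and 605.6 CPM in Tnfaip2-/- EBs. Of 12 genes of extraembryonic endoderm, 3 were higher, 7 lower and 2 did not pass, with sums of 168, 168 and 162 CPM in WT and 196, 194 and 195 CPM in Tnfaip2-/- EBs and Lama1 the most abundant. The higher sum came from Lama1, since without it the sums were 139, 138 and 135 CPM in WT and 120.5, 118 and 119.5 CPM in Tnfaip2-/- EBs. Of 10 trophoblast genes, 4 were higher, 2 lower, 1 did not pass and 3 were not tested, with sums of 85.5, 82.9 and 82.9 CPM and 226, 221 and 227 CPM. Tfap2c was the most abundant gene, with a mean of 21.7 ± 1.07 CPM in WT and 171 ± 1.65 CPM in Tnfaip2-/- EBs. Without it the sums were 62.9, 62.4 and 61 CPM in WT and 54, 51.4 and 55.7 CPM in Tnfaip2-/- EBs, so the direction of the sum turned. Krt7, Ascl2 and Hand1 were higher as well, at log2 fold changes of 1.26 ± 0.261, 1.54 ± 0.148 and 1.75 ± 0.317. Eomes, which belongs to the streak list too, fell from 28.4 ± 1.74 to 18.5 ± 1.54 CPM, Krt8 was lower, and the defining genes Elf5 and Tpbpa had at most 3 counts per sample. Of 10 fibroblast and mesenchyme genes, 1 was higher, 4 lower, 2 did not pass and 3 were not tested, with sums of 19.8, 21.4 and 19.4 CPM and 16.6, 15.7 and 15.8 CPM, Pdgfra the most abundant and Lum at 0 or 1 count.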

How the data were processed

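Total RNA of 3 WT and 3 Tnfaip2-/- EB samples was sequenced as single-end reads of 51 bases from a library kit that does not keep the strand. The authors mapped the reads to GRCm38 with TopHat2 2.1.0, counted uniquely mapped reads per Ensembl gene with featureCounts 1.5.0 and deposited raw counts. The strand setting of this counting is not given in the sources used here. Reads shared with overlapping genes can therefore not be separated.

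Samples were grouped by their labels. In R 4.3.3, counts were normalized by TMM and tested with edgeR 4.0.16 (default expression filter, count at least 10 and total at least 15, robust quasi-likelihood F test, Benjamini-Hochberg adjustment over 17849 genes, threshold 0.05). Standard errors were derived from F as the absolute log2 fold change over its square root. Totals per sample lay between 21765931 and 23804489 counts, and a value of 3 counts or fewer was taken as the floor. The code was tested on simulated data. Gene names, positions and exon lengths came from GENCODE for GRCm38, which held 52489 of the 52636 genes, and promoters from RefSeq. Genes named with sample values were, per role, up to 3 changed genes with the largest log2 fold change and at least 1 CPM in a genotype, and the gene with the highest level per kb. From the lists of effectors and other guidance genes up to 3 in each direction were named by the same rule. Other genes of these lists and of the 9 marker lists, the motifs and the promoters shown were picked after their values were seen. The members and lists were chosen with earlier results of these data known. Alternatives were RLE normalization, total counts, DESeq2 1.42.0, no filter, a stricter filter of 1 CPM in 3 samples, the legacy quasi-likelihood form, a null of a 1.5-fold change, the replicate block, leaving out each sample, and subtraction of the median of the chromosome.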

Additional observations from a re-analysis of the deposited data

How the results depend on the processing

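Against a null of a 1.5-fold change in place of any change, 2798 of all genes, 23 guidance genes (7 higher and 16 lower), 6 effectors and 6 other guidance genes passed, fewer by construction of the test. Under the other alternatives the number of changed guidance genes was between 41 and 47, with 12 to 14 higher and 29 to 34 lower, and that of all genes between 10506 and 12676. Leaving out 1 sample gave 43 to 45 guidance genes (13 higher, 30 to 32 lower), 26 to 29 effectors, 15 to 18 other guidance genes and 11537 to 11744 of all genes. With the replicate number as a block, 44 guidance genes and 11841 of all genes passed, and Sema4d and Cdon did not. The labels do not say whether the numbers pair the samples. Over all tested genes, deviations from the genotype means had correlations of -0.022, -0.025 and -0.032 between same-numbered samples. No sample correlated best with its own number. A batch that acts on few genes would not show in these correlations.

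The sign of the log2 fold change turned for 4 genes that had not passed the test. The log2 fold change of Sema3c was -0.0006 without the filter and -0.13 to 0.28 with 1 sample left out, below 0 without WT replicate 2 or 3 or Tnfaip2-/- replicate 3. The log2 fold change of Neo1 was 0.019 with total counts and -0.046 to 0.016 with 1 sample left out, above 0 without Tnfaip2-/- replicate 3. With the median of their chromosome subtracted, Efna3 was at 0.015 and Efna4 at 0.053. The cause was not tested. Of 962 tested values of 69 genes, 904 kept their direction and their side of the threshold. These values leave out the subtraction of the chromosome median, which has no test. The medians of chromosomes 17, 5, 3 and 10 were -0.25, -0.21, -0.20 and -0.18. After subtraction Ephb4 moved from -0.73 to -0.52, Sema6b from -0.89 to -0.63 and Sema4a from -1.61 to -1.41. Higher genes on these chromosomes moved away from 0, Slit2 from 0.80 to 1.01 and Efna1 from 1.21 to 1.41. The chromosome 10 median of -0.18 was near the log2 fold change of Efna2, which was -0.06 after its subtraction, and Cdon was at 0.04 after subtraction of the chromosome 9 median. The depth limits genes with few counts, among them the 11 untested genes. With 1 sample left out, the log2 fold change of Ephb1 was 0.02 to 0.51, the log2 fold change of Robo3 0.07 to 0.55, the log2 fold change of Slit1 0.12 to 0.60 and the log2 fold change of Nrp1 -0.77 to -0.27, none past the threshold. Without the filter Plxna4, Sema3d and Ntn4 passed as lower and Sema4d did not pass.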
